A study of Homo sapiens with 6 samples.

Results

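The insulin-like growth factor (IGF) genes described here are 10 genes picked by symbol: the binding proteins IGFBP2 to IGFBP7, the receptors IGF1R and IGF2R, and the insulin receptor substrates IRS1 and IRS2. All 10 were found among the 24305 gene symbols of the deposited tables, and 8 had enough counts to be tested. They were chosen with results of this comparison already known, so their own changes are given as a description and support nothing further. RNA came from DU 145, an established human prostate cancer cell line labelled as epithelial, after 48 h with the PARP inhibitor talazoparib (n = 3 libraries) or in a control group for 48 h (n = 3). The control titles read "DMOS", taken here as the solvent DMSO. The talazoparib dose of these libraries is not given in the labels. No genetic change separates the groups, and nothing says that the replicates were separate cultures, so p-values reflect only how these libraries differ, which may be technical.

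IGF1 and IGF2 are secreted growth factors that act through IGF1R, a tyrosine kinase receptor on the cell surface. The kinase phosphorylates IRS1 and IRS2, adaptors that recruit phosphoinositide 3-kinase (PI3K) and so activate AKT and mTOR. IGF2R has no kinase: it carries IGF2 to lysosomes for breakdown and also sorts lysosomal enzymes tagged with mannose 6-phosphate. The binding proteins hold IGFs outside the cell, where proteases release them. In prostate cancer IGFBP3 is best known for restraining growth, and it can also act without IGF.

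The 4 promoters below belong to the binding proteins with the largest fall (IGFBP3) and the largest rise past the threshold (IGFBP6) and to the pair of receptors that moved in opposite directions. Each is the 250 bases before the RefSeq start (GRCh38.p14), written 5′ to 3′ on the gene's strand. Capitals mark GC boxes (GGGCGG) and the FOXO element (TGTTTAC), found on either strand; GC boxes may overlap each other.
IGFBP3: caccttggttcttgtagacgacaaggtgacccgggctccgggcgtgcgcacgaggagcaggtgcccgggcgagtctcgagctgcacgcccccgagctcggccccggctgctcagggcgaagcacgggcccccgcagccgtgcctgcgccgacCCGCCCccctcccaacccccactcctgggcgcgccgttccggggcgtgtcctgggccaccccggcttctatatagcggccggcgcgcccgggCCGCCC
IGFBP6: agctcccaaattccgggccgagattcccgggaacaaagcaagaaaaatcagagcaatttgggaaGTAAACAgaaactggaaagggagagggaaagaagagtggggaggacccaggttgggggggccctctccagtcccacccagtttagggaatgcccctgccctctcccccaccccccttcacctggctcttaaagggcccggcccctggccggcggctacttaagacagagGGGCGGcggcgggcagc
IGF1R: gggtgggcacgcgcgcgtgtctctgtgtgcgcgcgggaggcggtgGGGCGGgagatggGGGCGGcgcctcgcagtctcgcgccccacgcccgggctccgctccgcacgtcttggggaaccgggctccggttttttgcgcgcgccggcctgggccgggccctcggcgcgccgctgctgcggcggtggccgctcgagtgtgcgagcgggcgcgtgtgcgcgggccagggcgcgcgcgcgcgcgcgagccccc
IGF2R: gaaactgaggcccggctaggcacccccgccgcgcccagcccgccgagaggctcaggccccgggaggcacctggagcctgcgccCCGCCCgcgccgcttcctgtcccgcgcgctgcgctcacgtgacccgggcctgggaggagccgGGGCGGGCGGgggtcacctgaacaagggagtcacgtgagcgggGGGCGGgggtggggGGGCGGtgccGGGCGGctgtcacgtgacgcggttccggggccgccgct
They lie at chr7:45921273-45921522 (minus strand), chr12:53097417-53097666, chr15:98648289-98648538 and chr6:159968832-159969081 (plus strand). The GENCODE gene coordinates given below have other starts. By them the IGFBP3 window lies within its gene, and so does most of the IGFBP6 window. The IGF2R window held 6 GC boxes, the IGF1R and IGFBP3 windows 2 each and the IGFBP6 window 1. A GC box occurs in 42.6% of 35116 promoter windows of this length. The FOXO element, the site of the insulin-restrained FOXO factors, matched once, in IGFBP6, 186 bases before the start, and occurs in 2.98% of all windows. Of the 10 genes, 9 had a promoter entry. A letter match is a description and not a binding site.

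Total counts ran from 39123997 to 39585727 per library. Of 14452 genes tested, 56.7% passed edgeR's quasi-likelihood test at an adjusted p under 0.05 (26.8% higher with talazoparib, 29.9% lower). Changes followed mRNA composition: 62.2% of genes in the longest decile of deposited lengths fell and 6.02% rose, while in the decile of highest GC content 66.3% rose and 0.875% fell. Among the controls, replicate 1 stood apart from the other two along both axes, by a median log2 difference of -0.22 in the lowest and 0.18 in the highest GC decile. A second fit removed the GC and length trend of every library, and its values are called trend-removed; 44.2% of 13718 genes passed in it (22% higher, 22.2% lower). The 7 epithelial markers summed to 1102 to 1310 CPM (counts scaled to library size) in the controls and 1178 to 1280 CPM with talazoparib, mostly the keratins KRT8 and KRT18; KRT19, CLDN4 and CLDN7 rose, and CDH1 was scarce (38 to 68 counts in the controls). The leukocyte marker PTPRC and the stromal markers DCN and LUM were at 0 in all libraries. The list of 7 leukocyte markers (6 in the table) summed to 25.97 to 28.6 CPM in the controls and 63.9 to 68.9 CPM with talazoparib, nearly all of it CD68, a lysosomal protein, with CD3E also at 0. The prostate luminal list (5 of 7 in the table) summed to 28.2 to 34.0 and 14.9 to 18.7 CPM, and the stromal list (7 of 7) to 23.5 to 27.2 and 16.8 to 22.2 CPM. Their part in the results was not tested.

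The largest change among the 10 genes was the fall of IGFBP3. Of the 8 genes tested, 7 passed the test, 3 higher (IGFBP4, IGFBP6 and IGF2R) and 4 lower (IGFBP3, IGF1R, IRS1 and IRS2), against 56.7% of all genes; nothing is read from that count, since the genes were chosen on this contrast. Trend-removed, 1 was higher (IGF2R) and 3 were lower (IGFBP3, IGF1R and IRS2), against 44.2% of all genes. IGFBP2 did not pass in either fit. IGFBP5 and IGFBP7 were too low to test.

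**Figure D1:**
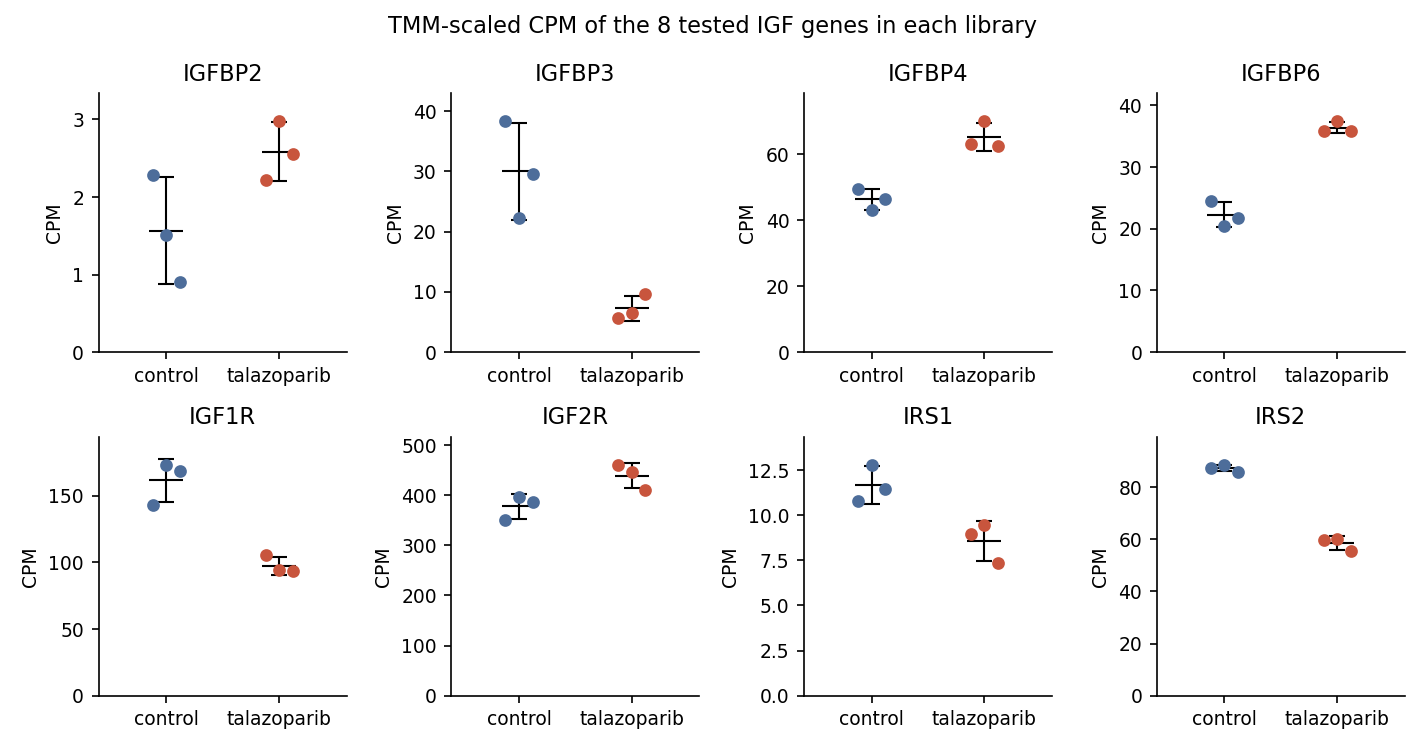
CPM (scaled by TMM, linear axis from 0) of each tested IGF gene in the 3 control and 3 talazoparib libraries; points are libraries, dashes are means and bars are SD. The groups are separate in 7 panels and overlap for IGFBP2. Over all 14452 genes tested, the groups were separate for 64.4%.

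IGFBP3 (chromosome 7, 45912245 to 45921874, minus strand), the main carrier of IGF in blood, stood at 38.3, 22.2 and 29.5 CPM in control replicates 1 to 3 and at 5.73, 6.57 and 9.63 CPM in talazoparib replicates 1 to 3. Every treated library lay below every control; such a gap between the groups, in either direction, was found for 64.4% of all tested genes. The mean went from 30.0 ± 8.05 to 7.31 ± 2.06 CPM (SD, n = 3 each), 4.10-fold lower, with a log2 fold change of -2.04 ± 0.22 (SE; edgeR adjusted p = 3.19e-05). Controls differed among themselves by more than for the other abundant genes here, with replicate 1 the highest. Trend-removed, the fall was as large (-2.10 ± 0.24). At 2631 nt and 49.5% GC the IGFBP3 mRNA belongs to middle deciles, where the median log2 fold change of all genes was 0.15 by length and 0.063 by GC.

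IGFBP6 (chromosome 12, 53097436 to 53102345, plus strand), which binds IGF2 in preference to IGF1, had 24.5, 20.5 and 21.8 CPM in the controls and 35.9, 37.4 and 35.8 CPM with talazoparib. The groups did not overlap, and the treated libraries were close together. It rose by 0.71 ± 0.10 on the log2 scale (1.63-fold, edgeR adjusted p = 0.000101). IGFBP4 (chromosome 17, 40443461 to 40457731, plus strand), a target of the protease PAPPA, had 49.6, 43.2 and 46.3 CPM in the controls and 63.1, 70.0 and 62.4 CPM with talazoparib. Again each treated library was above each control, and the log2 fold change was 0.49 ± 0.09 (1.41-fold, edgeR adjusted p = 0.000532). Both have short, GC-rich mRNAs (947 nt and 64.1% GC for IGFBP6, 2205 nt and 62.5% for IGFBP4). Both calls ended trend-removed, at 0.070 ± 0.065 for IGFBP6 and -0.0084 ± 0.054 for IGFBP4.

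IGFBP2 (chromosome 2, 216632828 to 216664436, plus strand), a binding protein often raised in prostate cancer, was scarce: 90, 62 and 37 counts in control replicates 1 to 3 and 85, 112 and 101 with talazoparib. Scaled to library size, control replicate 1 (2.28 CPM) was above talazoparib replicate 1 (2.21 CPM), so the groups overlapped. The log2 fold change was 0.72 ± 0.29 (95% interval 0.080 to 1.36, not adjusted for the number of genes; edgeR adjusted p = 0.0531). Leaving out 1 library moved it from 0.41 without control replicate 3 (edgeR adjusted p = 0.239) to 1.05 without control replicate 1, where it passed as higher (edgeR adjusted p = 0.0109). It also passed in DESeq2 (0.73, adjusted p = 0.0445), in limma-voom (0.81, adjusted p = 0.0354) and with the replicate block (0.78, edgeR adjusted p = 0.0285). With no expression filter (0.72) or the stricter filter (0.73) it passed as well. Total count scaling (0.65), upper quartile scaling (0.74) and FPKM values (0.65 and 0.34) gave no call. It did not pass trend-removed (0.20, edgeR adjusted p = 0.570).

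IGFBP5 and IGFBP7 were at the detection limit. IGFBP5 (chromosome 2, 216672105 to 216695525, minus strand), a binding protein of bone and matrix, had 4 counts in control replicate 3, 1 in talazoparib replicate 1 and 0 in the others. IGFBP7 (chromosome 4, 57030773 to 57110385, minus strand), a secreted relative that binds IGFs weakly, had 0 counts in all 6 libraries, which allows up to 3 counts, or 0.0758 to 0.0767 CPM, in each (counting error only). Neighbouring genes of the family differed widely in level. IGFBP2 and IGFBP5 face each other end to end with 7.67 kb between them on chromosome 2, and IGFBP1 (45888357 to 45893668) and IGFBP3 do the same across 18.6 kb on chromosome 7. IGFBP1, the insulin-suppressed binding protein of the liver, had 0 counts in every library beside 914 to 1509 counts for IGFBP3 in the controls.

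FPKM, which divides by mRNA length, allows levels to be compared between genes. Summed over IGFBP2 to IGFBP7, the binding proteins amounted to 63.8, 53.0 and 57.5 FPKM in the controls and 67.7, 71.7 and 71.0 FPKM with talazoparib. IGFBP3 made up 22.7%, 16.8% and 20.1% of that sum in the controls and 3.12%, 3.32% and 5.16% with talazoparib. IGFBP6 went from 41.6 ± 1.30% to 53.4 ± 0.887% (SD, n = 3 each) and IGFBP4 from 37.2 ± 1.90% to 41.0 ± 1.19%. So the binding protein transcripts went from a mixture of IGFBP6, IGFBP4 and IGFBP3 to one almost wholly of IGFBP6 and IGFBP4. These shares and ratios were taken without trend removal. The ratio of IGFBP6 to IGFBP3 in FPKM was 1.77 to 2.56 over the controls and 10.3 to 17.4 over the treated libraries.

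**Figure D2:**
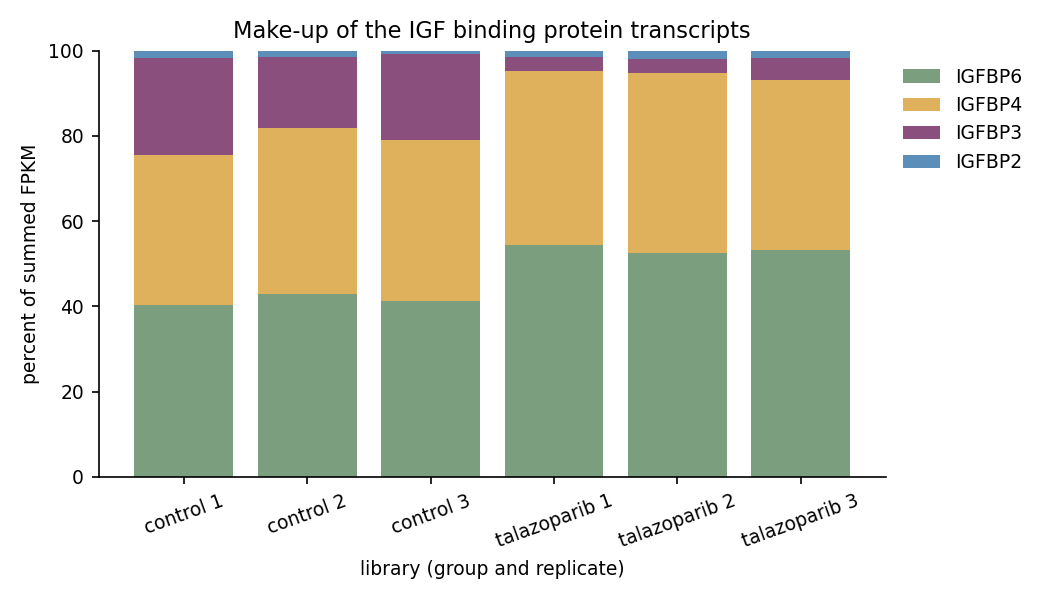
Share of each binding protein in the summed FPKM of IGFBP2 to IGFBP7, in percent, for each of the 6 libraries (1 bar per library; IGFBP5 and IGFBP7 are too low to see). The IGFBP3 band is 16.8% to 22.7% in the controls and 3.12% to 5.16% with talazoparib.

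The receptors moved apart. IGF1R (chromosome 15, 98648539 to 98964530, plus strand) had 143, 173 and 169 CPM in the controls and 105, 94.0 and 93.4 CPM with talazoparib. All treated libraries were lower, and control replicate 1 was the lowest control. It fell by 0.73 on the log2 scale (SE 0.09; 1.66-fold lower; edgeR adjusted p = 4.42e-05) and was still lower trend-removed (-0.42 ± 0.05). With the length trend alone removed it did not pass (-0.058, edgeR adjusted p = 0.587). The noncoding RNA IRAIN, antisense to IGF1R, had 19 to 42 counts per library against 3537 to 7123 for IGF1R; the strand setting of the counting is not given, and reads of the pair cannot be told apart without it.

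IGF2R (chromosome 6, 159969099 to 160113507, plus strand) had 350.2, 396 and 386 CPM in the controls and 461, 446 and 411 CPM with talazoparib. The treated libraries lay above the controls by a narrow margin, and the log2 fold change was 0.22 ± 0.08 (1.16-fold; edgeR adjusted p = 0.0296). The call ended without control replicate 1 (0.13) or 3 (0.20), without talazoparib replicate 1 (0.18) or 2 (0.21), with total count scaling (0.14), on FPKM values (0.14) and with the replicate number as a block (0.22). Trend-removed, the rise was larger, 0.65 ± 0.04 (edgeR adjusted p = 8.92e-07). The mRNAs of both receptors are long and of middling GC content (14061 nt and 49.4% for IGF2R, 13403 nt and 51.7% for IGF1R), in the decile of length where 62.2% of genes fell.

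Since the mRNAs of the receptors are alike in length and GC content, their ratio was taken within each library. IGF2R over IGF1R was 2.33, 2.18 and 2.18 in FPKM in the controls and 4.17, 4.52 and 4.20 with talazoparib, a mean of 2.23 ± 0.087 against 4.30 ± 0.19 (SD, n = 3 each). The spread within each group was small beside the step between them. INSR, the insulin receptor, which pairs with IGF1R in hybrid receptors, fell as well, from 16.2 ± 0.689 to 10.7 ± 0.664 CPM (-0.61 ± 0.12; edgeR adjusted p = 0.000912; -0.27 trend-removed, still past the threshold). The INSR call ended with length alone removed (-0.080, edgeR adjusted p = 0.613), and in the trend-removed fit with the replicate block (edgeR adjusted p = 0.0657) or without control replicate 1 (-0.26, edgeR adjusted p = 0.0624). IGF1R over INSR was 6.49 to 7.36 in the controls and 5.83 to 7.14 with talazoparib, and those ranges overlapped. The clearance receptor thus gained on IGF1R in each treated library, and no such gain was seen between IGF1R and INSR.

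IRS2 (chromosome 13, 109752698 to 109786568, minus strand), the adaptor tied most to metabolic signalling, had 87.4, 88.6 and 86.0 CPM in the controls and 59.9, 60.05 and 55.4 CPM with talazoparib. Relative to their mean its controls were the tightest of the 8 genes, and the groups were far apart. It fell by 0.58 on the log2 scale (SE 0.08; edgeR adjusted p = 6.78e-05), or 0.67 trend-removed. Length alone removed ended that call (-0.13, edgeR adjusted p = 0.281). IRS1 (chromosome 2, 226731317 to 226799759, minus strand), the adaptor tied most to growth signalling, had 10.8, 12.8 and 11.4 CPM in the controls and 8.96, 9.44 and 7.33 CPM with talazoparib. It passed as lower (-0.44 ± 0.14, edgeR adjusted p = 0.0177), but not trend-removed (-0.19), without control replicate 2 (-0.41) or without talazoparib replicate 3 (-0.34), and its sign turned with length alone removed (0.10). IRS2 over IRS1 was 8.30 to 9.73 in the controls and 7.62 to 9.05 with talazoparib, in FPKM, with overlap.

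**Figure D3:**
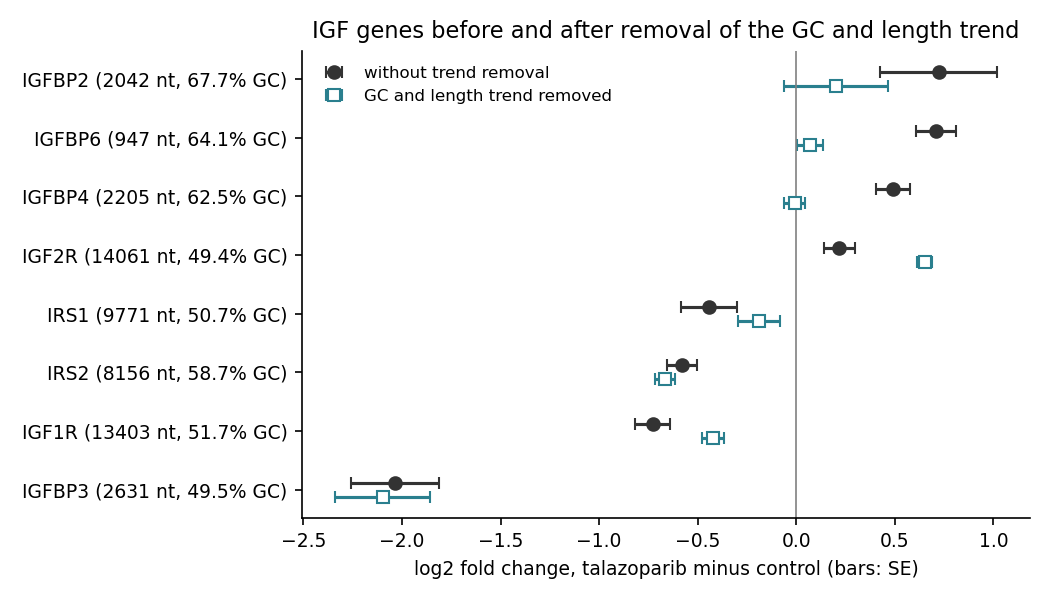
Log2 fold change (talazoparib minus control, bars SE) of the 8 tested IGF genes before (filled) and after (open) the GC and length trend was removed, with mRNA length and GC content beside each name. IGFBP3 stays near -2, IGFBP4 and IGFBP6 move to about 0, and IGF2R goes from 0.22 to 0.65.

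By level, IGF2R led in the controls at 27.6 ± 2.48 FPKM, then IGFBP6 (24.1 ± 1.52), IGFBP4 (21.5 ± 0.917), IGF1R (12.4 ± 1.55), IGFBP3 (11.7 ± 2.81), IRS2 (10.99 ± 0.383), IRS1 (1.23 ± 0.14) and IGFBP2 (0.783 ± 0.328). Several neighbours in that order were not separated over the 3 control libraries: IGF2R and IGFBP6, then IGF1R, IGFBP3 and IRS2, and last IRS1 and IGFBP2. With talazoparib IGFBP6 came first at 37.4 ± 0.562 FPKM and IGFBP3 dropped behind IRS2, to 2.72 ± 0.827 FPKM. The adaptor IRS2 was about as abundant per length as its receptor IGF1R in both groups.

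**Figure D4:**
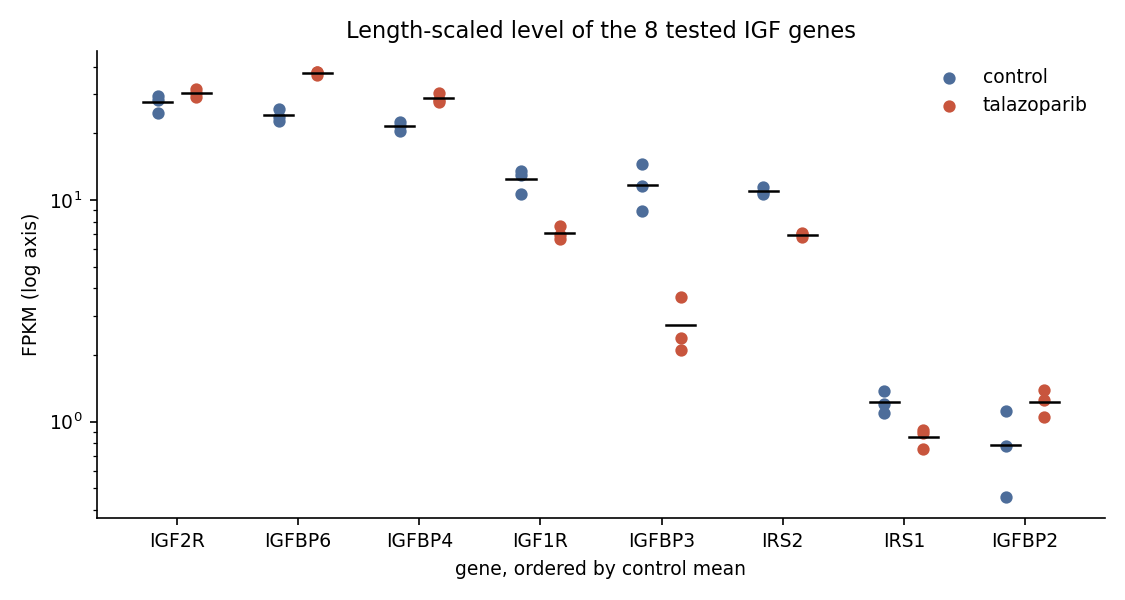
FPKM (log axis) of the 8 tested IGF genes, ordered by their control mean; points are libraries and dashes are group means. IGF2R, IGFBP6 and IGFBP4 are the highest in both groups, and IGFBP3 shows the widest gap between them.

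The other genes of the pathway were followed in 9 lists by role. Of 105 listed genes 86 were tested: 22 rose and 31 fell (61.6% called, against 56.7% of all genes), with a median log2 fold change of -0.043 beside 0.0015 for all genes tested. Trend-removed, 23 were higher and 30 lower, and of the genes past the threshold in both fits 33 had the same sign and 5 the opposite one. Over all genes 44.2% were called trend-removed, and 3593 had the same sign and 539 the opposite one. Among the 5, picked after their values were seen, were the adaptor GAB1 (-0.74 and 0.38 trend-removed), the PI3K subunit PIK3CB (-0.57 and 0.21), ADAM9 (-0.32 and 0.32) and the translation repressor EIF4EBP1 (0.34 and -0.33). In what follows the number after a slash is the trend-removed log2 fold change.

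Of the ligands, IGF2 alone was measured, and its transcripts were scarce. IGF2 had 2, 14 and 5 counts in the controls and 5, 4 and 3 with talazoparib, under the filter for testing. IGF1 and INS were not found under those symbols in the deposited tables and were not analysed here. IGFALS, which holds IGF and IGFBP3 in a large complex in blood, had at most 6 counts in a library. INSR was the 1 tested gene of this list.

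Among proteases that cut binding proteins, and their inhibitors, 3 of 6 tested genes rose and 1 fell (median 0.34; trend-removed 4 higher, 0 lower and a median of 0.42). STC1, also a secreted glycoprotein that inhibits PAPPA, was the gene called trend-removed alone (0.15 / 0.54; edgeR adjusted p = 0.466 and 0.00847), and was picked after its values were seen. PLAU, the urokinase that activates plasmin, rose from 426 ± 15.3 to 830 ± 74.5 CPM (0.96 ± 0.08 / 0.70; edgeR adjusted p = 8.66e-06). STC2, a secreted inhibitor of PAPPA, rose from 223 ± 9.55 to 344 ± 30.3 CPM (0.62 ± 0.08 / 0.53). The serine protease HTRA1 rose (0.53 / 0.088), a call that ended trend-removed. ADAM9, a membrane protease, fell (-0.32 / 0.32), with overlapping groups and the opposite call trend-removed, and its call was also lost without control replicate 2 (-0.28) or 3 (-0.32) or talazoparib replicate 1 (-0.27) or 2 (-0.23). PAPPA itself had only 6 to 11 counts per library.

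Of the relatives that share the IGF binding protein domain, 2 of 7 tested rose and 2 fell (median 0.12; trend-removed 2 higher and 4 lower). CCN5, a matricellular protein, had 8, 18 and 5 counts in the controls and 68, 67 and 81 with talazoparib (2.86 ± 0.38 / 2.33; edgeR adjusted p = 7.66e-05). KAZALD1 rose from 32.3 ± 2.34 to 53.3 ± 1.46 CPM (0.72 / 0.41), while CCN2, a YAP target, fell from 235 ± 12.9 to 172 ± 8.79 CPM (-0.45 / -0.64) and the transmembrane protein CRIM1 from 330 ± 28.3 to 182 ± 8.47 CPM (-0.86 / -0.34). IGFBPL1, picked after its values were seen, was more abundant per length than any of the 6 binding proteins in the controls, at 35.0, 37.3 and 36.3 FPKM, against 38.3, 36.6 and 37.4 FPKM with talazoparib. It did not pass the test (0.12 / -0.29; edgeR adjusted p = 0.145), and it was lower trend-removed.

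Adaptors and receptor brakes gave 2 rises and 7 falls among 14 tested (median -0.39; trend-removed 3 higher and 8 lower). NEDD4, a ubiquitin ligase that acts on IGF1R with the adaptor GRB10, fell from 68.9 ± 13.9 to 20.1 ± 2.54 CPM (-1.78 ± 0.15 / -0.90; edgeR adjusted p = 1.04e-05). CBL, a ubiquitin ligase of receptor tyrosine kinases, fell from 152 ± 23.2 to 62.6 ± 5.19 CPM (-1.28 ± 0.11 / -0.67). The RAS exchange factor SOS1 (-1.54 / -0.59) and the phosphatase PTPN11 (-1.09 / -0.44) fell too. In each of these 4 genes control replicate 1 was the lowest control and still above all treated libraries.

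In the PI3K and AKT list 5 of 17 genes rose and 10 fell (median -0.57; trend-removed 4 higher, 6 lower and a median of -0.039). The regulatory subunit PIK3R1, which docks on IRS proteins, fell from 7.25 ± 1.83 to 2.31 ± 0.478 CPM (-1.64 ± 0.23 / -0.75; edgeR adjusted p = 9.22e-05). The kinase genes AKT1 (0.45 / 0.082) and AKT2 (0.27 / 0.21), picked after their values were seen, rose; AKT1 did not pass trend-removed. PHLPP1 (-0.75 / -0.89) and PHLPP2 (-0.90 / -0.31), phosphatases that turn AKT off, also fell.

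The genes of the TSC and mTOR complexes gave 7 rises and 4 falls among 17 (median -0.0073; trend-removed 3 higher and 4 lower). Both stress-induced restraints on mTOR complex 1 rose, SESN2 (1.09 / 0.71) and DDIT4 (0.91 / 0.44). TSC1 (-0.82 / -0.46) and the cap-binding factor EIF4E (-0.99 / -0.43) fell. TSC2, of the same complex as TSC1 and picked after its values were seen, rose in both fits (0.45 / 0.26). Of 10 FOXO factors and insulin-responsive FOXO targets tested, 1 passed (median -0.016): FOXO3 fell from 22.4 ± 1.27 to 12.02 ± 1.48 CPM (-0.90 ± 0.12 / -0.44), a call that ended with length alone removed (-0.20, edgeR adjusted p = 0.176). FOXO4 (0.13 / -0.14), TRIB1 (-0.27 / -0.42) and KLF15 (-0.99 / -1.41) did not pass. KLF15, with 6 to 36 counts per library, passed without talazoparib replicate 3 (-1.71, edgeR adjusted p = 0.00828). It also passed in limma-voom (-1.22), on FPKM values (-0.79 and -0.18) and with the replicate block (-1.11). Trend-removed, 4 of the 10 were higher and 3 lower, TRIB1 and KLF15 among the latter.

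Genes that work with IGF2R in mannose 6-phosphate sorting went both ways: 3 of 11 rose and 3 fell (median 0.094; trend-removed 3 higher and 2 lower). M6PR, the other mannose 6-phosphate receptor, picked after its values were seen, had 108 ± 2.77 and 115 ± 6.19 CPM (0.094 / 0.14; edgeR adjusted p = 0.297). GNPTAB, which makes the mannose 6-phosphate tag, fell from 52.6 ± 11 to 21.5 ± 0.834 CPM (-1.29 ± 0.14 / -0.69). NAGPA, which uncovers the tag, rose (0.66 / 0.15), and SORT1 (-0.55 / -0.098) and the retromer subunit VPS35 (-0.90 / -0.16) fell; NAGPA and SORT1 did not pass trend-removed, nor did VPS35 with the replicate block added (-0.16, edgeR adjusted p = 0.0864). Of the IGF2 mRNA-binding proteins, IGF2BP2 fell from 78.5 ± 4.64 to 45.2 ± 3.14 CPM (-0.80 / -0.57) and IGF2BP3 from 35.3 ± 2.53 to 17.1 ± 2.27 CPM (-1.04 / -0.35), and IGF2BP1 did not pass (-0.34 / -0.05).

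**Figure D5:**
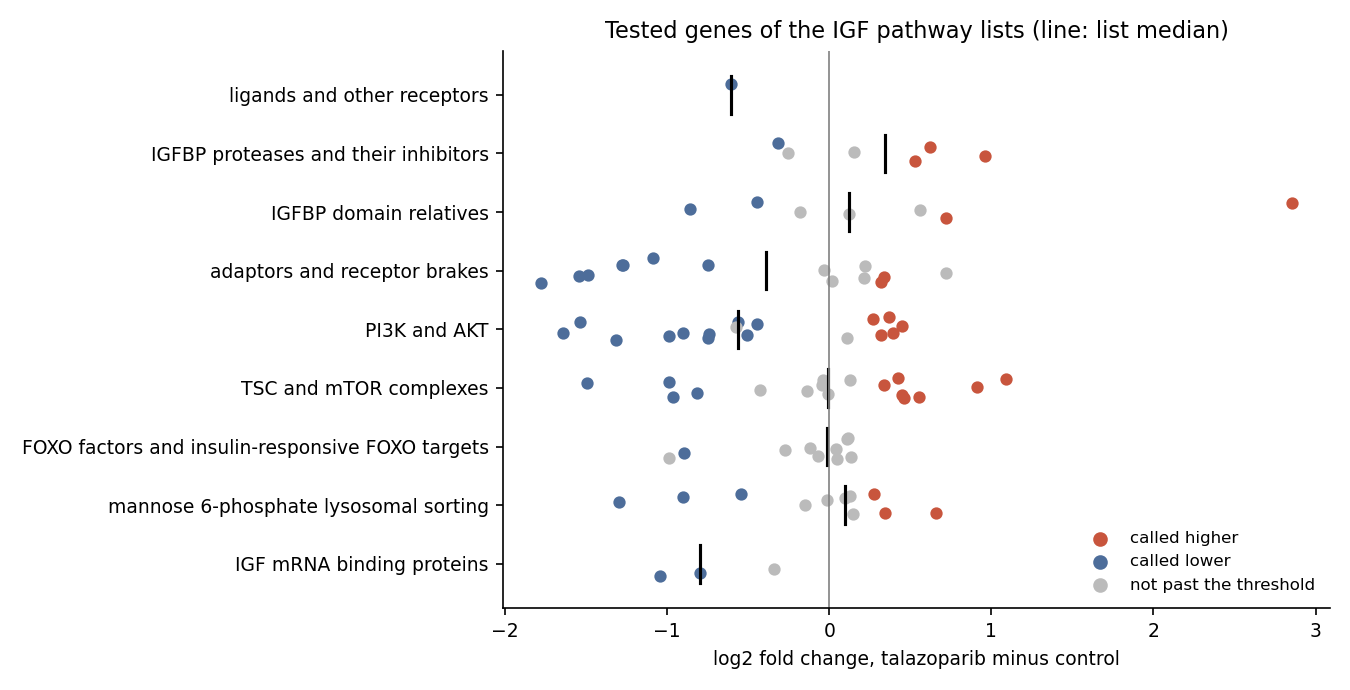
Log2 fold change (talazoparib minus control) of the 86 tested pathway genes by list; red points passed the test as higher, blue as lower, grey did not pass, and the line is the list median. The list medians run from -0.80 (IGF mRNA binding proteins) to 0.34 (IGFBP proteases and their inhibitors). Ligands and other receptors, with 1 tested gene, are at -0.61. PI3K and AKT are at -0.57 (-0.039 trend-removed), and adaptors and receptor brakes at -0.39 (-0.30 trend-removed).

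Over the 6 libraries, the genes whose log2 CPM ran most like IGFBP3 included LOC284581 and MKKS (Pearson r of 0.99 each), and those most like IGFBP2, the gene of the highest log2 fold change, were DLL3, LOC100270746 and SLC43A1 (0.99 each). These values rest on 6 points in 2 groups. Among the 14452 genes tested, 182 had r over 0.95 with IGFBP3 and 51 with IGFBP2. They are given as a description.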

How the data were processed

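Per the labels' protocols, RNA was isolated with TRIzol and sequenced from VAHTS Universal V6 libraries. HTSeq, Cufflinks, HISAT2, Trimmomatic and GRCh38 are named in the submitters' processing notes; not given in the sources used here are versions, annotation and strand setting. The count table deposited by the authors holds whole-number counts per gene symbol. The FPKM values deposited by the authors equal count over gene length over column total; lengths were taken from them (whole within 0.01 nt for 99.95% of 21065 genes).

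Counts were tested in edgeR 4.0.16 (R 4.3.3): filterByExpr with a minimum count of 10, TMM scaling, robust quasi-likelihood test, and Benjamini-Hochberg adjustment over 14452 genes at 0.05. CPM values use TMM-adjusted library sizes, except that untested genes and the limit of 3 counts use total counts. SE is the absolute log2 fold change over the square root of F. Trend-removed fits use an offset per library from natural splines (5 degrees of freedom) over log2 length and GC content of the longest GENCODE 29 transcript (13718 genes, 94.9% of those tested). Gene coordinates are GENCODE 29 on GRCh38, and promoters are from RefSeq.

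The genes, lists and alternatives were chosen with earlier results of these data known. Named genes are the 10, INSR, IGFBP1, IGF1, IGF2 and INS, up to 4 tested genes per list with the smallest adjusted p, and the 3 genes most correlated with the highest and the lowest member (log2 CPM, prior count 2); some of these are not reported here. Alternatives were DESeq2 1.42.0, limma 3.58.1 (voom, and log2(FPKM + 0.1) or log2(FPKM + 1)), other scalings and filters, the replicate block, trend removal and leaving out each library. The trend-removed fit without control replicate 1 was added after seeing the data. The labels name no batch. They also do not say whether libraries of the same replicate number belong together. Deviations of same-numbered libraries from their group means correlated at -0.17 to 0.0039. With 3 libraries per group these values cannot decide whether samples were paired.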

Additional observations from a re-analysis of the deposited data

How the results depend on the processing

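The counts of called genes stayed within 1.5 times of their values under other scalings, filters and tools. Of the 8 tested IGF genes, 7 passed (3 higher, 4 lower); with the length trend removed 4 passed, 1 of them lower, and with GC and length removed 4 passed, 1 of them higher, with or without the replicate block or control replicate 1. With the block and trend removal together 5143 of all genes passed (2567 higher, 2576 lower), against 8200. The replicate block alone left 7 IGF genes, 54 pathway genes and 7580 genes in all; it ended the call of IGF2R (0.22) and made one for IGFBP2 (0.78). Signs turned for IGFBP4 with GC and length removed (-0.0084, also with the block; -0.020 without control replicate 1), IRS1 with length removed (0.10), IGF2BP1 with length removed (0.16), FOXO4 with GC removed (-0.13), with GC and length removed (-0.14), with the block added (-0.14) or without control replicate 1 (-0.13), and ADAM9 in the same 4 fits (0.40, 0.32, 0.32 and 0.28); the cause was not tested. The fall of IGFBP3 passed under every setting run. The order of the 8 levels was the same per TMM-scaled CPM and kb; leaving out control replicate 1 or 2 kept 6 of 8 places. IGFBP2 had 37 to 112 counts, with 37 to 90 in the controls alone, and IGFBP5 and IGFBP7 lie at the limit.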
